A study of Mus musculus with 15 samples.

Results

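The comparison set the livers of mice carrying the TXNIP C247S change (C247S KI) against wild-type (WT) livers. Its members were set by genotype label: 5 C247S KI and 5 WT libraries of bulk liver RNA, 10 of the 15 libraries of the series, each taken after 8 weeks of high-fat diet. The members and the gene lists counted below were chosen with earlier results of these data known. The third group, 5 libraries of Txnip knockout (KO) liver, entered the estimate of the spread and is quoted only where its level bears on a result. Diet and tissue were common to all groups, whereas strain, sex and age are not stated in the labels used here. Each sample title carries a number of its own, different in all 15, but the labels do not say that these are animal numbers, so the p-values measure the spread between libraries, which may be technical in part. Whether the C247S KI and WT mice were littermates is not stated either.

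TXNIP is an alpha-arrestin that is held to thioredoxin by a disulfide bond and that also lowers glucose uptake by cells. The cysteine named in the genotype is the one that forms this bond, and a serine in its place leaves the arrestin fold without the link. In liver, Txnip transcription follows glucose, and the organ is also the main site where the body makes cholesterol, a pathway of consecutive enzymes whose genes are switched on together by the transcription factor SREBP2 when sterols run low.

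The position that the genotype names is shown in the reference coding sequence of the Txnip-201 transcript, with the codon in capitals. It lies on the plus strand at chr3:96559732-96559776 (GRCm38), inside an exon, and the codon itself covers 96559753 to 96559755. It is the mouse reference sequence, not a read of the knock-in allele.
Txnip-201 around the codon: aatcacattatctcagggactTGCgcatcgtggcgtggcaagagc
Txnip-202, the other protein-coding transcript with many counts, has 3 more coding bases (in capitals) upstream, so that the same cysteine has a number higher by 1 there than in Txnip-201.
Txnip-201 at that point: agcagcctacaggtgagaacgaga
Txnip-202 at that point: agcagcctacagCAGgtgagaacgaga

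The libraries held 18047577 to 23379940 estimated counts each, and 13916 genes were abundant enough to test. Levels below are CPM, a gene's share of its library after TMM scaling of the library sizes, unless a sentence says log2, and a log2 difference is always C247S KI minus WT. Hepatocyte RNA dominated every library, with Alb alone at 4.17% to 8.59% of counts in the 10 libraries. Among the 10, WT 1 and C247S KI 5 lay at opposite ends of the first principal component (24.5% of the variance) and C247S KI 3 at one end of the second (17.7%). These 3 libraries stood apart from the rest.

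Txnip RNA itself did not differ detectably between the groups. It stood at 180.4, 196, 319.9, 218 and 197 CPM in WT 1 to 5 and at 168, 280.2, 99.9, 208 and 205 CPM in C247S KI 1 to 5. The ranges overlapped, with C247S KI 3 the lowest library and WT 3 the highest. C247S KI minus WT came to -0.21 for Txnip (log2, SE 0.24, edgeR quasi-likelihood adjusted p = 0.782), and a two-sided exact permutation test of log2 CPM gave p = 0.397, where 5 against 5 can reach 0.00794. Both coding transcripts carried the counts, 1830 to 3331 in WT and 817 to 3258 in C247S KI for Txnip-202, and 1625 to 2827 and 822 to 2467 for Txnip-201. The level is no check of the genotype, because the labelled change leaves the gene in place.

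In C247S KI livers, enzymes of cholesterol synthesis made up 6 of the 9 genes called higher, and 3 genes were called lower. The 12 called genes (edgeR quasi-likelihood, Benjamini-Hochberg adjusted p below 0.05) were 0.0862% of the genes tested, 0.0647% higher and 0.0216% lower. They include mt-Nd3 (higher) and Gm28438 (lower), near-identical sequences whose sum overlapped between the groups. Without adjustment, 1370 genes (9.84%) had p below 0.05. Of all genes tested, 50.4% had a positive log2 difference, and the median was 0.00. Without any filter on counts 20 genes were called, and DESeq2 called 67, 48 of them higher, which held all 12. Leaving out C247S KI 4 gave 24, whereas leaving out WT 3 gave 4, WT 4 gave 5 and C247S KI 1 gave 7. Without the 3 libraries that stand apart 10 genes were called, and 5 of the 12 were among them.

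**Figure D1:**
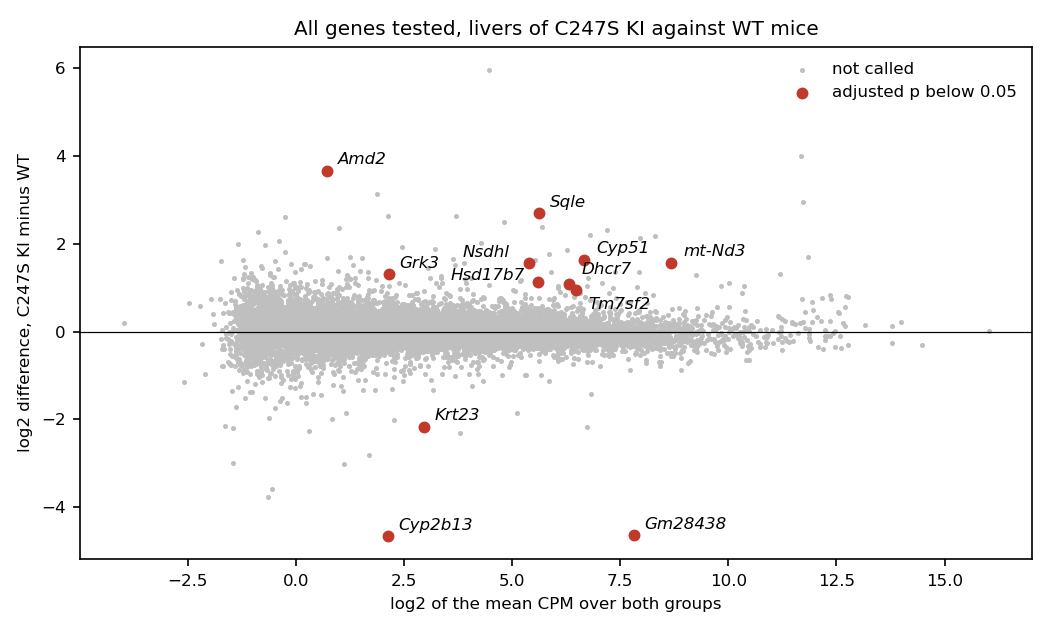
Each point is a gene, with the log2 of its mean CPM over both groups on the x axis and the log2 difference (C247S KI minus WT) on the y axis; red points with names are the 12 called genes. The 6 cholesterol synthesis enzymes lie between 0.95 and 2.70, Gm28438 and Cyp2b13 lie lowest of the called genes, and the grey point at the top is Moxd1 at 5.94, not called.

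The post-squalene arm, which turns squalene into cholesterol and is counted here with Fdft1, the enzyme that makes squalene, held all 6 called enzymes. All 12 of its measured members had a positive log2 difference, with a median of 1.15 beside 0.00 over all genes, and 6 of the 12 were called against 0.0647% of genes called higher. Sqle, the squalene epoxidase that makes the first oxygenation of the sterol skeleton, had the largest difference. It was at 9.06, 23.4, 7.91, 9.64 and 15.9 CPM in WT and 118, 76.2, 113, 30.3 and 92.0 CPM in C247S KI. The groups did not overlap, though C247S KI 4 was far below the other C247S KI libraries and WT 2 was the highest WT library. Sqle rose by 2.70 on the log2 scale (SE 0.38, edgeR adjusted p = 0.00507), a call lost only without WT 1, C247S KI 3 and C247S KI 5 together (adjusted p = 0.0770).

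Cyp51, the lanosterol demethylase, stood at 36.8, 79.8, 43.4, 43.4 and 42.1 CPM in WT and 199, 133, 191, 68.8 and 172 CPM in C247S KI. WT 2 and C247S KI 4 crossed, and the other 8 libraries fell on separate sides. The rise of Cyp51 was 1.64 (SE 0.27, edgeR adjusted p = 0.0247), and its call was lost on leaving out any 1 of WT 1, 3, 4 and 5 and C247S KI 1 and 5.
Tm7sf2, a sterol reductase of the next step, was at 76.4, 71.9, 48.2, 56.5 and 50.8 CPM in WT and 126, 113, 134, 119.9 and 93.7 CPM in C247S KI. All C247S KI libraries were above all WT libraries, and C247S KI 4 was not low for this gene. Tm7sf2 rose by 0.95 (SE 0.17, edgeR adjusted p = 0.0354), a call lost without WT 3, 4 or 5 or C247S KI 1, 2 or 3.
Nsdhl, which removes a carboxyl group from the sterol nucleus, gave 16.8, 28.3, 18.5, 22.6 and 20.7 CPM in WT and 85.7, 60.4, 67.1, 33.9 and 66.7 CPM in C247S KI. The groups were apart, with C247S KI 4 nearest to WT. Nsdhl rose by 1.55 (SE 0.23, edgeR adjusted p = 0.0101), with an adjusted p of 0.0584 without WT 3 and 0.0884 without the 3 libraries that stand apart.
Hsd17b7, the 3-keto reductase of the same demethylation complex, gave 28.4, 40.2, 26.0, 32.7 and 26.1 CPM in WT and 98.2, 57.8, 52.0, 52.5 and 72.6 CPM in C247S KI. It did not overlap between groups and rose by 1.12 (SE 0.18, edgeR adjusted p = 0.0207), a call lost without WT 1, 3, 4 or 5 or C247S KI 5.
Dhcr7, which reduces the last double bond before cholesterol, gave 44.0, 64.2, 52.8, 50.1 and 47.5 CPM in WT and 147, 98.6, 139, 65.5 and 93.5 CPM in C247S KI. WT 2 and C247S KI 4 nearly met, and Dhcr7 rose by 1.07 (SE 0.19, edgeR adjusted p = 0.0398), a call that held without WT 2 or C247S KI 4 but was lost without any other single library.

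On GRCm38 the called enzymes lie on 6 chromosomes: Sqle at chr15:59315077-59331192, Cyp51 at chr5:4081145-4104746, Tm7sf2 at chr19:6062821-6068373, Nsdhl at chrX:72918557-72958514, Hsd17b7 at chr1:169949535-169969241 and Dhcr7 at chr7:143823145-143848410. Values are for whole genes, all annotated exons together. In KO, Tm7sf2 ranged from 69.3 to 119.8 CPM and so overlapped both WT and C247S KI. The KO means of the other called enzymes were 8.54 CPM for Sqle, 45.1 for Cyp51, 26.0 for Nsdhl, 25.8 for Hsd17b7 and 32.7 for Dhcr7.

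The 6 members not called were also positive. Fdft1, the squalene synthase that commits carbon to sterols, had a log2 difference of 1.75 (edgeR adjusted p = 0.0953), from 14.5 to 51.4 CPM in WT and 31.0 to 122 CPM in C247S KI. Lss, the cyclase that closes the sterol rings, was at 1.17 (adjusted p = 0.0914) and Msmo1, the methyl oxidase, at 1.22 (adjusted p = 0.180). Without C247S KI 4 all of Fdft1, Lss and Msmo1 passed the threshold (edgeR adjusted p = 0.0117 each), as they did with DESeq2, and Fdft1 and Lss also passed without WT 2 or without a count filter. Sc5d and Ebp, which act on the ring double bonds, were at 0.32 and 0.12. The number of called post-squalene enzymes was 1 without WT 3, 2 without WT 4 or without WT 5, 3 without WT 1, without C247S KI 1 or without C247S KI 5, and 9 without C247S KI 4. It was 2 in a fit of the 10 libraries alone and 1 without the 3 libraries that stand apart, which kept only Tm7sf2. The list's median log2 difference moved little over these fits, from 0.94 to 1.30.

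The mevalonate arm, which builds the isoprene units that squalene is made of, had no called member of 9, but all 9 were positive, with a median log2 difference of 1.20. Of the 9, 8 had an unadjusted p below 0.05, against 5.64% of all genes in that direction. Hmgcs1, which makes HMG-CoA, was at 62.5, 150.1, 80.4, 87.2 and 89.7 CPM in WT and 380.5, 197, 233, 69.6 and 323 CPM in C247S KI. C247S KI 4 lay below 4 of the WT libraries for Hmgcs1, and its log2 difference of 1.36 had an edgeR adjusted p of 0.183. Fdps, the farnesyl diphosphate synthase, differed by 1.34 (adjusted p = 0.0850), Idi1, the isopentenyl diphosphate isomerase, by 1.68 (adjusted p = 0.288), Mvd by 1.45, Mvk by 1.20, Pmvk by 0.94 and Acat2 by 0.61. Without C247S KI 4, Hmgcs1 (edgeR adjusted p = 0.00537), Mvk (0.0474), Pmvk (0.0176) and Fdps (0.0176) passed the threshold; DESeq2 also called these 4, and Fdps passed without WT 2 or without a count filter. Whether the mevalonate arm differed from the post-squalene arm was not tested. Ggps1, which leads isoprenes away from sterols into protein prenylation, was close to WT at 0.10.

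**Figure D2:**
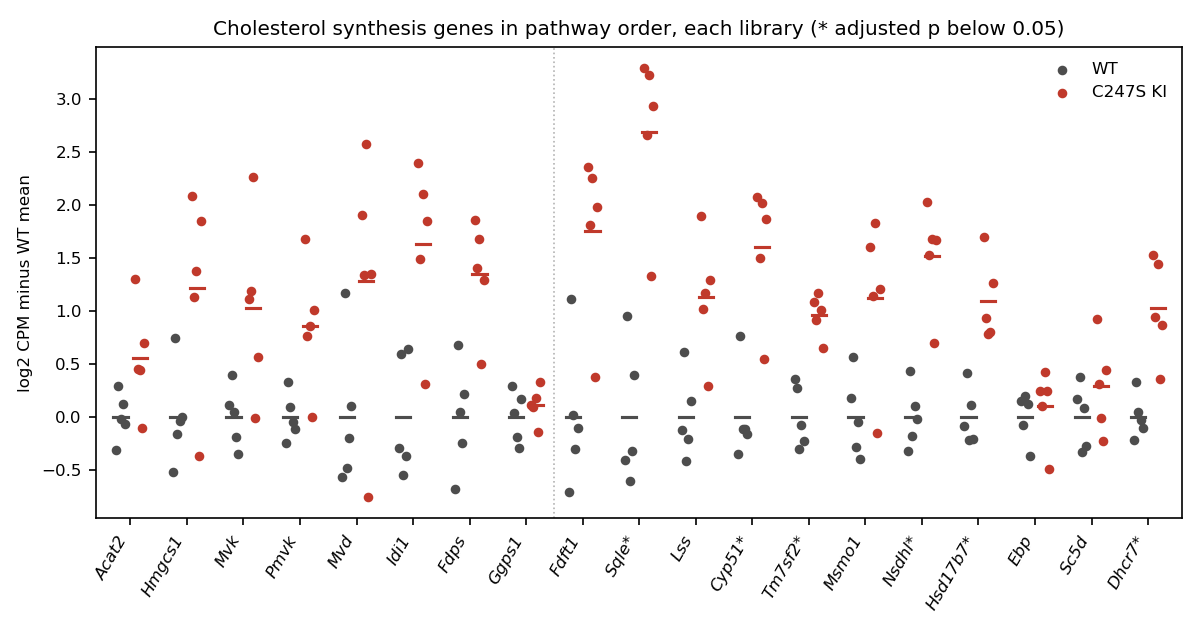
Log2 CPM of each library minus the WT mean (y axis) for 19 cholesterol synthesis genes in pathway order (x axis), with the mevalonate arm left of the dotted line; dots are libraries, short lines are group means, and asterisks mark called genes. Nearly all C247S KI dots lie above 0, with 1 low C247S KI library, C247S KI 4, in most genes.

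The regulators and uptake genes of the same programme gave mixed values. Of 14 tested genes on the SREBP2 and sterol uptake list, 0 were called, 10 were positive and the median log2 difference was 0.17 (0.287 without the 3 libraries that stand apart). An unadjusted p below 0.05 was reached by 5 of the 14, all higher (5.64% of all genes). Srebf2, which encodes SREBP2, was at 44.2, 57.3, 38.2, 43.4 and 47.6 CPM in WT and 70.3, 68.2, 71.8, 58.7 and 60.2 CPM in C247S KI. The 2 groups did not overlap, as for 1.3% of all genes (0.711% higher in C247S KI), and the log2 difference of 0.51 (SE 0.11) had an edgeR adjusted p of 0.121. Rdh11, a retinol dehydrogenase listed among SREBP2 targets, differed by 1.14 (SE 0.23, adjusted p = 0.0850). Srebf2 passed the threshold with DESeq2 and without WT 2, and Rdh11 with DESeq2, without a count filter, without WT 2 and without C247S KI 4. Insig1, which holds SREBP in the endoplasmic reticulum, was at -0.12, with overlapping ranges. Insig2 was at -0.31, Mylip at -0.44, Scap at 0.26, Tmem97 at 0.39, Stard4 at 0.37, Erg28 at 0.17, Mbtps2 at 0.16, Mbtps1 at 0.02 and Lpin1 at 0.02. Insig1 turned positive when WT 2 or C247S KI 4 was left out, so its sign is not settled.

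Among the sterol genes, 16 had a promoter in the RefSeq table for GRCm38.p6 and 15 of these held CCAAT or its complement ATTGG within the 250 bases before at least 1 annotated start. Sqle, Fdps and Fdft1 had no promoter there. The 15 included Ggps1 and Ebp, which had the smallest log2 differences of their arms (0.10 and 0.12). Whether the motif goes with the size of the difference was not tested. The same letters occurred before at least 1 start in 37.5% of all 27025 genes in the table. CCAAT is the box bound by the factor NF-Y, which acts beside SREBP2. The sterol element TCACNCCAC (N is any base; either strand; its end could share letters with a CCAAT) stood before 1.22% of all genes and before 1 of the 16, Hmgcs1. A match is only a string of letters, and no binding was measured. The pair below is shown because Nsdhl was called and Hmgcs1 carries both motifs; capitals mark the matches, none of which overlap.
Nsdhl, chrX:72918271-72918520, plus strand: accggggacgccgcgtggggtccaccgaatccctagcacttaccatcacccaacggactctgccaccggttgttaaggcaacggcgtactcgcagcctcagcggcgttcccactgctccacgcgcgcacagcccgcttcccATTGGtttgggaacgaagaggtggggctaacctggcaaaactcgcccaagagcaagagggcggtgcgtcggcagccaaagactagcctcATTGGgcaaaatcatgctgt
Hmgcs1, chr13:119690101-119690350, plus strand: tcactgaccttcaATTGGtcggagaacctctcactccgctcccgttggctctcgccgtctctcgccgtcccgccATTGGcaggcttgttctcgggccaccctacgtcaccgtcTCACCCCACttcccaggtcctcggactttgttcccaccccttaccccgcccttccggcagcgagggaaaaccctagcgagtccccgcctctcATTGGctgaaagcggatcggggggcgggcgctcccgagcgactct

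The genes of fatty acid synthesis, controlled by the related factor SREBP1, were mixed. On the de novo lipogenesis list, 0 of 12 genes were called and 9 were positive, with a median log2 difference of 0.29. Acss2, which makes acetyl-CoA from acetate, was at 0.998 (94.4 to 414 CPM in C247S KI, 93.7 to 128 in WT), Acacb at 0.86, Fasn at 0.47 and Acly at 0.44, whereas Srebf1 was at -0.71 (adjusted p = 0.331). Elovl6, the fatty acid elongase, was at 0.83 and Scd1, the stearoyl desaturase, at 0.84, without a call; Elovl6 passed the threshold without C247S KI 3 (1.04, edgeR adjusted p = 0.0458) and without the 3 libraries that stand apart (1.27, adjusted p = 0.00509). The sterol exporters Abcg5 and Abcg8, targets of LXR, were at -0.42 each, and Cyp7a1, the rate-limiting enzyme of bile acid synthesis, at 0.79 (adjusted p = 0.559). Pltp, the phospholipid transfer protein, was at 1.04 (adjusted p = 0.349).

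The called pair with the smallest p was not a pathway but 2 near-identical sequences. mt-Nd3, a complex I subunit encoded on the mitochondrial genome (chromosome M, 9459 to 9806), was at 217, 205, 248, 169 and 185 CPM in WT and 650.1, 549.8, 568, 670.1 and 597 CPM in C247S KI. Gm28438, an unprocessed pseudogene on the minus strand of chromosome 1 (24612775 to 24613119), was at 524, 364, 478, 418 and 391 CPM in WT and 17.6, 24.5, 13.9, 21.5 and 10.5 CPM in C247S KI. mt-Nd3 rose by 1.57 on the log2 scale (SE 0.14, edgeR adjusted p = 1.24e-05) and Gm28438 fell by 4.63 (SE 0.22, edgeR adjusted p = 1.09e-09). Both calls held in every alternative.

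The 2 transcripts differ in the reference by a single base over the shared 345 bases, T3C (mt-Nd3 base first, counted from the first base of each), and mt-Nd3 ends in 3 more bases. The first 60 bases and the ends are printed with the differing letters in capitals.
mt-Nd3-201 start: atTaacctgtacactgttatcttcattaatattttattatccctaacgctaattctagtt
Gm28438-201 start: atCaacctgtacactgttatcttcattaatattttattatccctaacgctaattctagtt
mt-Nd3-201 end: aaaggattagaatgaacagagTAA
Gm28438-201 end: aaaggattagaatgaacagag
Reads from the rest of the sequence match both, so the estimated counts of each alone are uncertain. Added together, the pair gave 640 ± 85.9 CPM in WT and 625 ± 52.5 CPM in C247S KI (SD, n = 5 each), with overlapping ranges. The share of the sum given to Gm28438 was 67.9% ± 3.11 in WT against 2.83% ± 0.948 in C247S KI, while KO livers stood at 66.4% ± 1.997 (SD, n = 5 each). Which letter the libraries carry was not tested. The other 12 protein genes of the mitochondrial genome gave 0 calls, 11 of them positive, with mt-Nd4 at 0.25 and mt-Nd2 at 0.22. With mt-Nd3 included, the list mean (log2 CPM minus the WT mean) overlapped, from -0.26 to 0.32 in WT and 0.20 to 0.39 in C247S KI. The list median was 0.13, or 0.31 without the 3 libraries that stand apart.

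**Figure D3:**
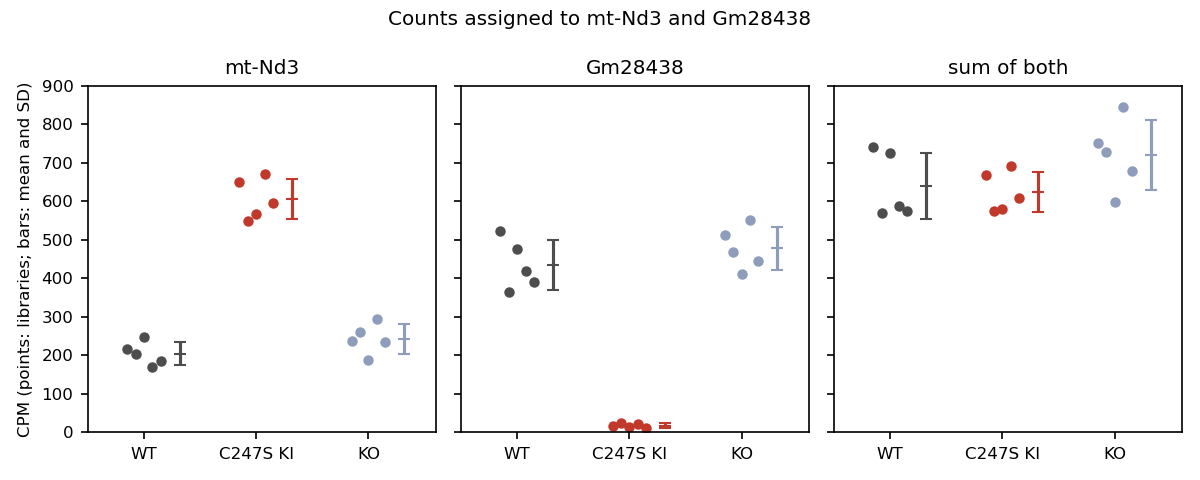
CPM assigned to mt-Nd3, to Gm28438 and to their sum (y axes) in WT, C247S KI and KO libraries (x axes); points are libraries and bars are mean and SD, n = 5 each. In C247S KI nearly all of the sum is assigned to mt-Nd3, while the sum itself lies between 574 and 692 CPM, within the WT range of 569 to 741.

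Amd2 (chr10:35708675-35711892) and Grk3 (chr5:112910482-113015791) were the other called rises. Amd2, a copy of the S-adenosylmethionine decarboxylase gene of polyamine synthesis, was at 0.466, 0.160, 0.0965, 0.289 and 0.204 CPM in WT and 3.40, 3.85, 4.11, 1.29 and 2.72 CPM in C247S KI. It rose by 3.66 (SE 0.50, edgeR adjusted p = 0.00507), without overlap, and kept its call in all 17 alternatives that tested it. Amd1, the parent gene whose sequence it shares, was lower at -0.75 (SE 0.30, adjusted p = 0.448), so the division of reads between the 2 is uncertain. Grk3, a kinase of active G protein-coupled receptors, was at 3.52, 1.996, 2.27, 1.56 and 3.51 CPM in WT and 5.79, 4.72, 7.07, 5.62 and 8.69 CPM in C247S KI. Grk3 did not overlap and rose by 1.31 (SE 0.23, edgeR adjusted p = 0.0354), a call lost without WT 2, 3 or 4 or C247S KI 1, 3 or 5 (edgeR adjusted p at most 0.131 over these) and without the 3 libraries that stand apart (0.0929).

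Krt23 (chr11:99477974-99493137) and Cyp2b13 (chr7:26061497-26096197) were the called falls besides the pseudogene. Krt23, a keratin, was at 9.37, 12.5, 18.05, 16.9 and 7.48 CPM in WT and 3.79, 2.02, 0.399, 4.27 and 3.76 CPM in C247S KI. The groups did not overlap and Krt23 fell by 2.16 (SE 0.39, edgeR adjusted p = 0.0424), a call lost without WT 1, 2, 3 or 4 or C247S KI 1, 2 or 5 (edgeR adjusted p at most 0.148 over these) and without the 3 libraries that stand apart (0.0567). Other bile duct genes of its list went the other way without a call, Sox9 at 0.87, Krt19 at 0.80 and Epcam at 0.68. Cyp2b13, a cytochrome P450 that is higher in female liver, was at 0.311, 8.54, 15.1, 13.6 and 4.63 CPM in WT and 0.348, 0.193, 0.171, 0.112 and 0.752 CPM in C247S KI. KO libraries were at 0.0462 to 0.958 CPM, so Cyp2b13 was as low there as in C247S KI. WT 1 was as low as C247S KI, and the fall of 4.64 (SE 0.78, edgeR adjusted p = 0.0276) lost its call without WT 3 or 4 or C247S KI 1, 2 or 3 (edgeR adjusted p at most 0.118 over these) and with limma-voom (adjusted p = 0.423). The female-biased list as a whole was low in WT 1 and C247S KI 2, 3 and 4 (means from -1.86 to -0.68 on the log2 scale) and near the WT mean in C247S KI 1 and 5 (0.26 and 0.19); its part in the Cyp2b13 result was not tested. The near copies Cyp2b9 and Cyp2b10 were at -2.17 and -2.31, not called, so the family's reads are uncertain one gene at a time.

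Xenobiotic enzymes had mostly negative differences, with no call besides Cyp2b13. Of 26 tested genes, 20 were negative, with a median log2 difference of -0.29, and 9 had an unadjusted p below 0.05 on the lower side (4.2% of all genes). Ces2c, a carboxylesterase, was at 25.7, 38.3, 39.1, 51.1 and 26.6 CPM in WT and 17.5, 24.5, 11.1, 18.5 and 19.1 CPM in C247S KI, with no overlap (0.589% of genes lower), and its log2 difference was -0.996 (adjusted p = 0.224). Cyp3a11, the main PXR target, was at -0.87 (adjusted p = 0.606). The median was -0.17 without C247S KI 3 and -0.11 without the 3 libraries that stand apart.

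Redox and energy genes near to TXNIP in function gave no call. On the thioredoxin and glutaredoxin list, 0 of 24 genes were called and 22 were negative, with a median log2 difference of -0.18 (-0.111 without the 3 libraries that stand apart). Txn1, the thioredoxin to which TXNIP binds, was at -0.40 (adjusted p = 0.363), Msra, a methionine sulfoxide reductase, at -0.40 (adjusted p = 0.325) and Glrx5 at -0.29. Among the alpha-arrestins, Arrdc2 was at -0.77 and Arrdc3 at -0.60, neither called. Nuclear genes of complex I and of complexes II to V were negative in all 74 measured members, with medians of -0.23 and -0.22 and 0 calls. WT libraries were spread as widely as that difference (from -0.42 to 0.24 for the complex I list mean on the log2 scale). C247S KI libraries, from -0.55 to -0.03, overlapped them. Without the 3 libraries that stand apart the medians were -0.116 and -0.075. Cytosolic ribosomal proteins were also negative in 38 of 40 with a median of -0.10, or -0.0095 without those libraries. Mpc1, a mitochondrial pyruvate carrier, was at -0.47, Igfbp1, an insulin-suppressed secreted protein, at 0.83 and Trib3, an AKT-binding pseudokinase, at -0.88, none called.

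A set of genes was high in single C247S KI libraries. On the acute-phase list, which collects liver proteins raised by inflammation, 20 of 24 genes were positive with a median log2 difference of 0.70 and 0 calls. Saa1 was at 1029, 182, 674, 822 and 1154 CPM in WT and 447, 503, 24631, 3357 and 907 CPM in C247S KI. C247S KI 3 held the high level of Saa1, C247S KI 4 a lesser one, and the rest lay within the WT range. Saa2 was at 28071 CPM and Lcn2 at 1954 CPM in C247S KI 3, against highest WT values of 783 and 177 CPM. Without C247S KI 3 the list median was 0.14, and the log2 differences of Saa1 and Saa2 were 0.77 and 0.96.
Sex-biased genes also followed libraries. The mean level of the male-biased list was higher in C247S KI 2, 3 and 4 and in WT 1 than in the other libraries, and the female-biased list was lower in the same libraries. Selenbp2 was at 31.3 to 181 CPM in WT and at 479, 898 and 471 CPM in C247S KI 2, 3 and 4, but 64.1 and 108 CPM in C247S KI 1 and 5. Moxd1 was at 214 CPM in C247S KI 3 and at most 3.26 CPM in the other 9 libraries. Neither was called. Arntl, a clock activator, was highest in C247S KI 4 at 7.14 CPM (1.35 to 4.05 CPM in WT). All 5 tested genes of its clock phase had positive differences, with a median of 0.48. Without C247S KI 4 that median was 0.15, over 6 tested genes. The part of these libraries in the sterol result was not tested. On the log2 scale the post-squalene mean lay 1.62, 1.09, 1.41, 0.481 and 1.15 above the WT mean in C247S KI 1 to 5. WT 2 lay 0.496 above it, so C247S KI 4 overlapped WT. The mevalonate mean was -0.048 in C247S KI 4 and 0.545 in WT 2, so the groups overlapped there too.

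**Figure D4:**
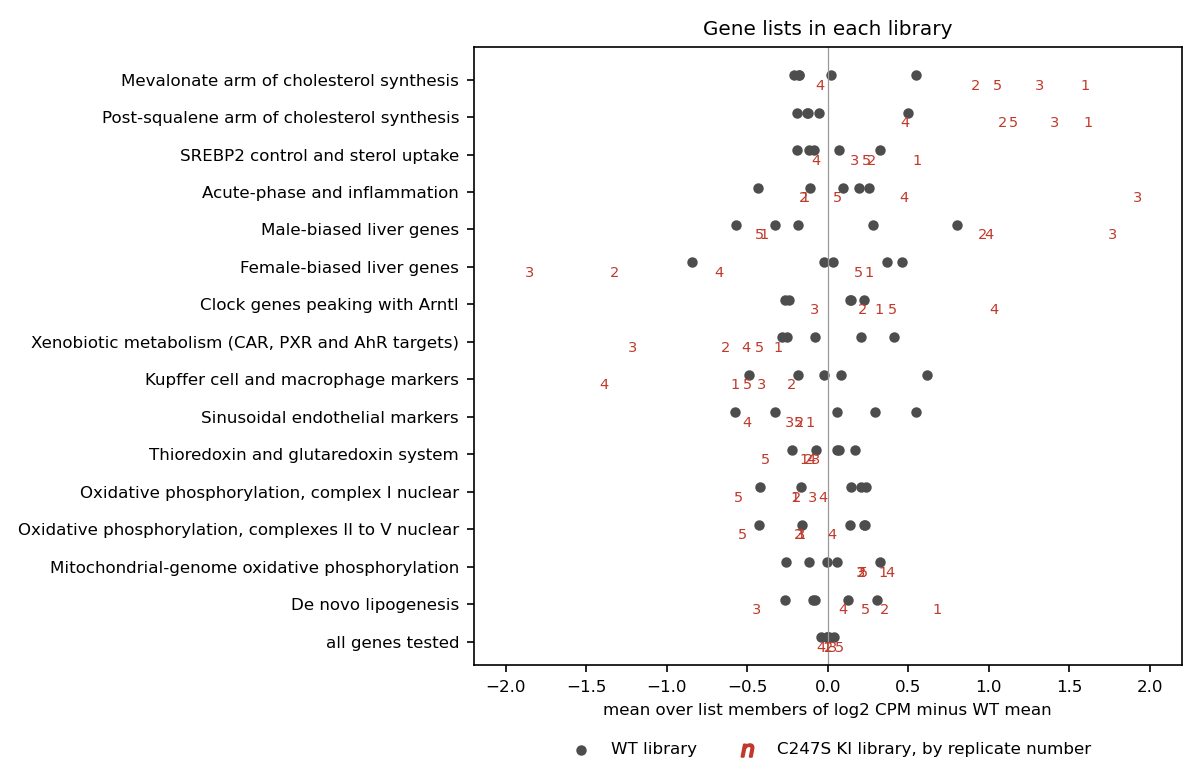
Mean over list members of log2 CPM minus the WT mean (x axis) for 15 gene lists and all genes tested (y axis); dots are WT libraries and red digits are the replicate numbers of C247S KI libraries. C247S KI 3 is farthest from WT for the acute-phase and sex-biased lists, and C247S KI 4 is lowest of C247S KI for both cholesterol lists and for Kupffer markers.

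Resident macrophage markers had mostly negative differences, none of them called. On the Kupffer cell list, 17 of 18 genes were negative, with a median log2 difference of -0.63 and 10 at an unadjusted p below 0.05, all lower (4.2% of all genes). Adgre1, which encodes F4/80, was at 7.92, 24.9, 8.93, 7.91 and 10.4 CPM in WT and 6.36, 7.90, 4.68, 2.30 and 6.73 CPM in C247S KI. C1qa, a complement subunit of these cells, was at 31.0, 52.4, 46.7, 30.1 and 35.2 CPM in WT and 26.2, 27.2, 26.3, 13.4 and 23.1 CPM in C247S KI. Neither overlapped between groups (0.589% of all genes lower) and neither was called (log2 differences -1.10 and -0.75, adjusted p = 0.416 and 0.371). For Adgre1, WT 4 was barely above C247S KI 2, and WT 2 was far above the other WT libraries. Over the alternatives the log2 difference of Adgre1 ranged from -1.26 to -0.64 and that of C1qa from -0.88 to -0.61. Other defining markers were Cd5l at -0.98, Timd4 at -0.79, Vsig4 at -0.78 and Clec4f at -0.54. The list summed to 437 to 776 CPM in WT and 297 to 523 CPM in C247S KI, and 0 of the 18 markers were at 0. Fewer macrophages and less RNA per macrophage cannot be told apart in bulk liver. Of 19 sinusoidal endothelial markers, 17 were negative (median -0.28, or -0.457 without the 3 libraries that stand apart), whereas neutrophil markers were positive in 11 of 12 (median 0.27, or 0.175 without them), again with 0 calls.

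Other single genes did not overlap between the groups but were not called. Over all genes tested, 181 (1.3%) did not overlap, 0.711% higher and 0.589% lower in C247S KI. Aldoc, a glycolytic aldolase, was at 7.09, 6.15, 4.49, 6.52 and 6.004 CPM in WT and 13.1, 14.2, 16.1, 9.44 and 11.7 CPM in C247S KI, a log2 difference of 1.09 (edgeR adjusted p = 0.0511). Aldoc passed the threshold in 6 of 18 alternatives, among them the 10 libraries alone (0.0406), DESeq2 (0.000295) and without C247S KI 4 (0.0176). Csad, an enzyme of taurine synthesis, was at 0.98 (adjusted p = 0.120), Onecut1, a hepatic transcription factor, at 1.56 with C247S KI 4 at 54.7 CPM far above the rest, Cobl at 1.09 and Dntt at 1.03. Ide, the insulin-degrading enzyme, was at 0.52 (adjusted p = 0.183), Pfkfb1, the liver bifunctional enzyme of fructose bisphosphate, at 0.27 (adjusted p = 0.379) and Fth1, ferritin heavy chain, at -0.43. Among the lower genes, Dusp14, a phosphatase, was at -1.33 (adjusted p = 0.120), Sult1c2 at -0.96, Tpm2 at -0.79, Tymp at -0.64, Tm4sf1 at -0.59, Paxx at -0.58 and Ccdc107 at -0.55. Car3, a carbonic anhydrase, was at -0.64, with C247S KI 3 at 293 CPM and the other C247S KI libraries between 1104 and 1391 CPM. The 16 tested genes next to Txnip on chromosome 3 had 0 calls and a median of -0.04. A list of genes that differ between mouse substrains had 6 tested members and 0 calls. Of these, 4 were positive (50.4% of all genes) and the median was 0.31. An unadjusted edgeR p below 0.05 was reached by 2 on the higher side (5.64% of all genes) and 1 on the lower (4.2%). Whether the groups differ in strain was not tested.

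At the level of transcripts, 2 of 32871 were called (0.00608%), mt-Nd3-201 higher (0.00304%) and Gm28438-201 lower (0.00304%), the same pair as in the gene test. An unadjusted p below 0.05 was reached by 1879 transcripts (5.72%). On simulated counts the transcript test recovered 34% of 3-fold and 4% of 1.5-fold changes, so a transcript without a call may still have changed. The shares of 6 transcript classes, each with at least 0.1% of counts, gave no difference past the threshold (two-sided exact permutation test, adjusted p = 0.686 to 0.833); retained introns, for example, were 1.73% ± 0.513 of counts in WT and 2.12% ± 0.726 in C247S KI (SD, n = 5 each).

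Transcript usage, the share of a gene's counts held by each of its transcripts, shifted in 11 of 7974 genes (0.138%) by edgeR's diffSpliceDGE, but in 0 by limma's diffSplice on voom values, and 394 genes (4.94%) had an unadjusted p below 0.05 in the edgeR test. On simulated counts of this comparison the edgeR usage test made 38 false calls beside 28.5% of 200 real 3-fold shifts recovered, so the 11 are weakly held. Pigt and Nudt14 had separate shares in all 10 libraries and are described; Fuk, Rprd2, Scrib, Lsm10, Ces3a, Map3k10, Ptpa, Rab1b and Sco1 made up the rest. Of those, Rab1b alone also had shares that did not overlap between the groups. The usage test picked these genes from the same counts, so the separation adds no support to it. How many of all tested genes have separate shares was not counted.
Pigt encodes a subunit of the complex that attaches GPI anchors. Its transcript Pigt-205, annotated for nonsense-mediated decay, had 0 counts in all 5 WT libraries and all 5 KO libraries and 23, 11, 13, 20 and 13 counts in C247S KI, 1.44% of the gene's counts on average. Pigt-205 contains an exon that Pigt-201 lacks, at chr2:164498490-164498579, plus strand. They are 2611 and 2562 bases long, so they also differ outside this exon.
Pigt-205 extra exon: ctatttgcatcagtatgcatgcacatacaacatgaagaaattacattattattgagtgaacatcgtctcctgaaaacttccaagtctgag
Pigt as a whole was at 58.6 CPM in WT and 55.3 CPM in C247S KI, a log2 difference of -0.09 (edgeR adjusted p = 0.849), and its usage p was 0.000128 (edgeR) or 0.145 (limma), both adjusted.
Nudt14 encodes a hydrolase of UDP-glucose. Nudt14-201, which lacks 36 bases of an exon of Nudt14-202, had 54, 40, 68, 30 and 33 counts in WT and 5, 7, 7, 8 and 3 in C247S KI, 2.86% ± 0.918 against 0.381% ± 0.122 of the gene's counts (SD, n = 5 each). In KO it had 8, 8, 2, 4 and 3 counts, so it was as low there as in C247S KI. The usage p of Nudt14 was 0.01004 (edgeR) or 0.145 (limma), both adjusted. The bases are at chr12:112938558-112938593, minus strand. Nudt14-201 is 734 bases long and Nudt14-202 is 1241, so they also differ outside these bases. Which difference divides the counts was not tested.
Nudt14-202 extra bases: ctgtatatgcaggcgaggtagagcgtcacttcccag

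**Figure D5:**
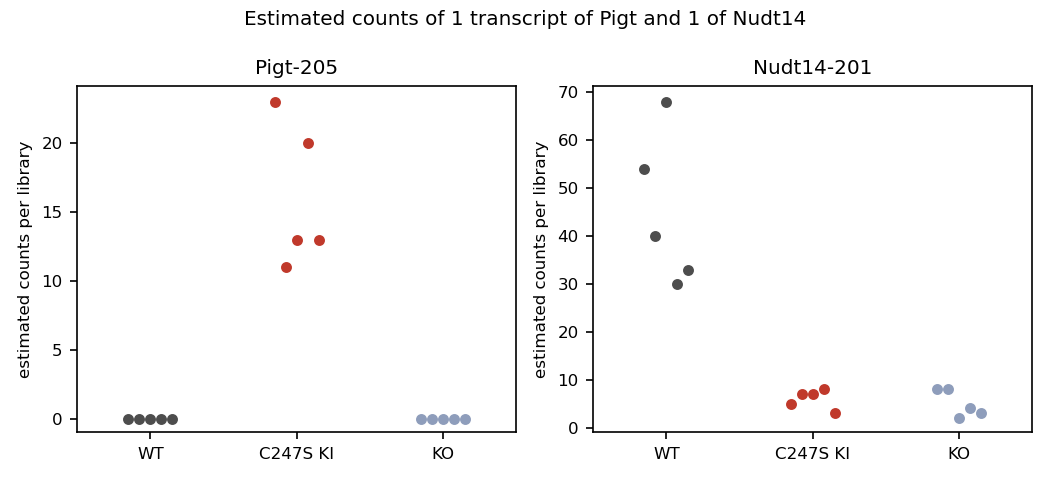
Estimated counts (y axes) of Pigt-205 and of Nudt14-201 in WT, C247S KI and KO libraries (x axes); points are libraries. Pigt-205 is above 0 only in C247S KI (11 to 23 counts), and Nudt14-201 is at 30 or more in WT and at 8 or fewer elsewhere.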

How the data were processed

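The authors deposited estimated counts per transcript. Trimmomatic 0.39, kallisto 0.50.1, DESeq2 and mm10 are named, without roles, per the submitters' processing notes. The sources used here do not name the transcript set that was indexed. Of 115911 transcripts, 114331 matched GENCODE M21 (GRCm38) without version and were summed to 35546 genes. The 1580 others held at most 0.459% of a library's counts and stayed out of gene tests. Kallisto divides shared reads by estimation, so near-identical genes are uncertain.

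Genes were tested with edgeR 4.0.16 in R 4.3.3 (TMM, filterByExpr by group, quasi-likelihood, all 15 libraries). SE is the size of a log2 difference over the root of F. On simulated counts 83% of 3-fold and 14% of 1.5-fold changes were recovered, with 5 false calls among 13718 genes. Alternatives were DESeq2 1.42.0, limma-voom 3.58.1, RLE factors, other count filters, the 10 libraries alone, a replicate block and leaving out each library. A fit that omits 3 libraries (WT 1 with C247S KI 3 and 5) was added after seeing the data. No 2 libraries of a group were copies of each other: over their 20 pairs, chi-square divided by its degrees of freedom was at least 26.6.

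The members and the 58 gene lists were chosen with earlier results of these data known. Genes named are Txnip, all called genes, members of the sterol lists (the values of some listed genes are not reported here, though list counts and medians include them), called and lowest-p list members and the non-overlapping genes with at least 5 CPM in a group and the largest differences, 12 each way, where predicted gene models (Gm and Rik names) were left out. Further members of the same lists are given as values chosen after they were seen: Amd1, Cyp2b9, Cd5l, Timd4, Vsig4, Clec4f, Krt19, Epcam, Fasn, Acly, Scd1 and Cyp3a11.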

Additional observations from a re-analysis of the deposited data

Results flagged for a closer look

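Over the named genes, 20 values stood apart within a group of 5 libraries by Dixon's criterion, which chance alone meets in about 1 group in 20; 222 groups were examined, so the share was 9.01%. In C247S KI 4, Fdft1 was low at 31.0 CPM, C1qa at 13.4 and Timd4 at 0.899, whereas Onecut1 was high at 54.7 CPM, Nfil3 at 82.3 and Arntl at 7.14. In C247S KI 3, Car3 was low at 293 CPM, Tymp at 39.6 and Ugp2 at 135, whereas Orm2 was high at 805 CPM and Apcs at 987. C247S KI 1 was high for Csad at 147 CPM, and C247S KI 2 was low for Amd1 at 3.08. In WT 2, Cyp51 was high at 79.8 CPM and Adgre1 at 24.9. WT 1 was low for Acacb at 41.2 CPM and Cyp2b9 at 31.1, and WT 5 was low for Ugp2 at 317. WT 3 was high for Orm2 at 78.5 CPM and WT 4 for Epcam at 1.85.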

How the results depend on the processing

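All 12 called genes kept their direction in every alternative that tested them, and 3 (Amd2, mt-Nd3 and Gm28438) also kept their call in each. Of 98 named genes not called, 21 passed the threshold in some alternative. The number of called genes was 12; it was 20 without a count filter, 6 in the 10 libraries alone, 6 with the replicate block and 67 with DESeq2, and 4 to 24 with 1 library left out. Called post-squalene enzymes numbered 6, and 2 in the 10 libraries alone, 2 with the replicate block, 1 to 9 with 1 library left out and 1 without the 3 libraries that stand apart. Called transcripts numbered 2; 4 with a mean count of at least 50, 5 without those 3 libraries and 2 to 6 with 1 library left out. Usage calls numbered 11; 0 with limma's diffSplice, 1 with a mean count of at least 50, 5 in the 10 libraries alone, 17 without those 3 libraries and 2 to 40 with 1 library left out.

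The deviations of same-numbered libraries correlated at 0.00604 to 0.381, not all above 0.1, and 1 of 5 pairs correlated best with its own number. The main fit therefore used no pairing. These correlations had no chance level beside them, so they cannot decide whether the numbers pair libraries. The directions that reversed were those of genes near 0, and Orm2. Lpin1 was at -0.025 with the replicate block, at -0.077 with limma-voom and from -0.187 to 0.207 with 1 library left out. With 1 library left out, Mbtps1 ranged from -0.035 to 0.063, Insig1 from -0.243 to 0.083, and Orm2 from -0.574 (without C247S KI 3) to 2.61, and Orm2 was at -0.601 without the 3 libraries. The cause of these moves was not tested. Low transcripts, such as Pigt-205 at 11 to 23 counts, are limited by depth.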
